A study of Hordeum vulgare with 12 samples.

Results

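Leaves of barley accessions BCS24 and BCS8 were compared under the control condition, with 3 libraries of each accession, 6 of the 12 libraries of the study. The other 6 are leaf libraries of the same accessions under drought. The label ck was read as control. Barley is a diploid cereal, and the accessions are named by code only, so their pedigree, the age of the plants and whether replicates were separate plants are not known here. P-values therefore measure the spread between these libraries, which may be technical. Genes with at least 1 FPKM (fragments scaled for gene length and library size) in at least 3 of the 12 libraries were followed, 17342 of the 30157 genes in the deposited table. A log2 fold change is BCS24 over BCS8 and is given ± its standard error from edgeR with 3 libraries per group. A gene counts as higher or lower where the edgeR p-value, adjusted over all 17342 genes, is under 0.05.

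Accessions of a crop differ in sequence and in gene content, so their leaf transcriptomes can differ both in how strongly shared genes are transcribed and in which gene copies give reads at all. Resistance genes of the nucleotide-binding type and receptor-like kinases are known to vary in presence among plant accessions. Leaf RNA is dominated by transcripts of the photosynthetic apparatus, whose nuclear part includes the chlorophyll a-b binding proteins of the light-harvesting antenna. Ribosomes of the cytosol, the plastid and the mitochondria are built from separate sets of protein genes. Genes are usually defined on a reference genome, and for a gene at 0 counts the absence of the gene, its silence and an uncounted diverged allele cannot be told apart.

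The 6 control libraries held 49553836 to 60946665 counts. Pearson correlations of log2 values were 0.958 to 0.98 among BCS24 libraries, 0.945 to 0.976 among BCS8 libraries and 0.847 to 0.876 between the accessions. Chlorophyll a-b binding and Rubisco small chain genes, defining markers of photosynthetic leaf, were among the most abundant, with Rubisco small chain genes summing to 7547 to 13650 FPKM in every control library. Of all counts, rRNA genes took 0.531, 2.07 and 1.45% in BCS24 and 0.795, 0.997 and 0.520% in BCS8 (exact 2-sided permutation p = 0.3; the smallest p that 3 against 3 libraries allow is 0.1). BCS24 control 2 and 3 thus held the highest rRNA shares. BCS8 control 2 also stood apart for single genes: 49 of the genes that differed between the accessions were over 2 times as high there as in the next BCS8 library, against 4 to 16 such genes in each other library.

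Between the accessions 3317 genes differed, 19.1% of those tested (edgeR). BCS24 was higher in 1731 (9.98%) and lower in 1586 (9.15%). Of these, 722 and 644 differed at least 2-fold, and 348 and 310 at least 4-fold. For 8001 genes (46.1%) the 3 libraries of one accession all lay above the 3 of the other. Such separation is therefore common, and some of the genes named below were chosen for it. The median log2 fold change of all tested genes was −0.01. The count rests on all libraries: it was 1402 without BCS24 control 2, 1423 without BCS24 control 3, 1690 without BCS8 control 2, 1788 without BCS8 control 3 and 2136 once rRNA share entered as a covariate. Counts within the gene lists below mostly fell likewise when these libraries were left out, and are given for many of the lists. Counts of other lists moved too. Over all alternatives the fewest lower genes were 2 for the oxygen-evolving complex and 2 for lignin synthesis, and the fewest higher histone genes were 1.

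**Figure D1:**
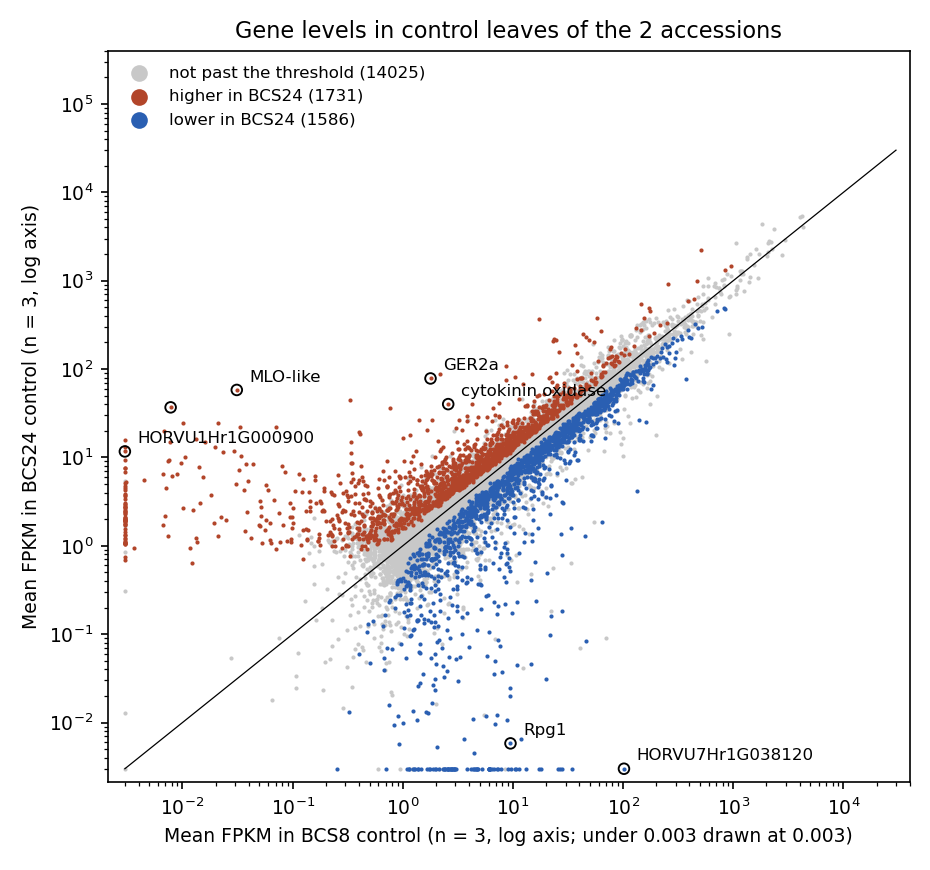
Mean FPKM of each of the 17342 tested genes in BCS8 control (horizontal) and BCS24 control (vertical), both on log axes, with 3 libraries per mean and genes under 0.003 drawn at 0.003. The 1731 genes higher and 1586 genes lower in BCS24 fan out on both sides of the line of equal levels, and some lie on the edges, with reads in only 1 accession; circled genes are named in the text, and the unlabelled circle is glutathione transferase gene HORVU6Hr1G090560.

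Some genes gave reads in only 1 accession. In BCS8, 61 tested genes had 0 counts in all 3 control libraries, and 47 of these reached at least 1 FPKM in every BCS24 control library. In BCS24, 77 genes had 0 counts, and 64 of these reached at least 1 FPKM in every BCS8 control library. Under drought, in libraries not used to find them, 33 of the 47 were again at 0 in all 3 BCS8 libraries and 48 of the 64 in all 3 BCS24 libraries. Shown here are the genes with the most reads, which were picked after their values were seen. A fold against a group at 0 is a lower bound, taken with 3 counts in each library.

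The most abundant of them was HORVU7Hr1G038120, annotated with shikimate kinase activity, a step on the way to aromatic amino acids. It stood at 92.0, 133 and 80.6 FPKM in BCS8 and at 0 in all 3 BCS24 libraries, at least 565-fold lower in BCS24. A second gene with the same annotation, HORVU6Hr1G026700, stood at 15.1, 22.2 and 14.3 FPKM in BCS8 and at 0 in BCS24 (at least 110-fold lower). Both lay wholly on the BCS8 side, which their choice as genes at 0 in BCS24 required. HORVU6Hr1G010420, annotated to ubiquitin-dependent protein breakdown, was at 27.0, 32.7 and 24.8 FPKM in BCS8 and 0 in BCS24 (at least 791-fold lower). HORVU0Hr1G003790, annotated both as a kinesin and as a protein of the large ribosomal subunit, was at 24.8, 31.0 and 21.3 FPKM in BCS8 and 0 in BCS24. In the other direction, HORVU3Hr1G000590, annotated with beta-glucosidase activity, was at 14.9, 16.6 and 16.4 FPKM in BCS24 and at 0 in BCS8 (at least 721-fold higher). HORVU1Hr1G000900, annotated with ADP binding and defence, was at 10.5, 13.1 and 11.5 FPKM in BCS24 and at 0 in BCS8 (at least 1755-fold higher). In these 6 genes the accessions did not overlap, but choosing genes at 0 in an accession fixed this in advance.

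Among gene copies with the same annotation, some gave reads mainly in one accession. Of the 4 genes annotated with 3-isopropylmalate dehydrogenase activity, a step of leucine synthesis, HORVU3Hr1G069300 on chromosome 3H was at 10.2, 12.4 and 10.2 FPKM in BCS8 and at 0.0579, 0.0337 and 0.0437 in BCS24. HORVU7Hr1G066450 on chromosome 7H was the reverse, at 14.4, 15.5 and 15.5 FPKM in BCS24 and at 0.0269, 0.0215 and 0 in BCS8. The most abundant copy, HORVU2Hr1G124400, averaged 17.0 FPKM in BCS24 and 19.5 in BCS8 and did not pass (−0.21), nor did the low copy HORVU2Hr1G124490 (−0.30). Summed over the 4 genes, the level was 33.1 ± 4.41 FPKM in BCS24 and 31.7 ± 0.800 in BCS8 (mean ± SD, n = 3), so the libraries of the accessions overlapped. For the 10 genes annotated with shikimate kinase activity the sum was 132.6 ± 13.5 FPKM in BCS24 and 295.5 ± 23.6 in BCS8, with no overlap. Much of the gap is HORVU7Hr1G038120, picked above for its 0 in BCS24, which averaged 101.8 FPKM in BCS8. HORVU1Hr1G050970 and HORVU3Hr1G014780, also lower in BCS24, are described as probable inactive shikimate kinases. HORVU1Hr1G050960, averaging 69.6 FPKM in BCS24 and 58.9 in BCS8, did not pass. Histone H4, a core protein of chromatin, is encoded by 14 tested genes, of which HORVU7Hr1G043300 was higher in BCS24 (3.30 ± 0.37, edgeR adjusted p = 2.17e-04) and 3 others were lower. How reads of near-identical copies were divided is not given in the sources used here, so a single copy's level is uncertain where its sequence is close to another's.

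Defence genes were counted in several lists. Of 75 tested genes annotated with ADP binding, the nucleotide-binding domain of many plant resistance proteins, 19 were higher and 5 lower, with a median log2 fold change of 0.39 and 59 positive values, beside 9.98% and 9.15% of all tested genes. HORVU1Hr1G092920 was among the lower ones, at 7.08, 5.58 and 7.32 FPKM in BCS8 and 0 in BCS24 (at least 485-fold lower). HORVU6Hr1G010230 was at 0.748, 1.28 and 1.41 FPKM in BCS24 and 0.153, 0.125 and 0.233 in BCS8, higher by 2.70 ± 0.32 (edgeR adjusted p = 3.40e-04). Neither gene's libraries overlapped between the accessions. The 7 genes described as disease resistance proteins had 1 higher and 1 lower (median −0.27), and their sum was lower in every BCS24 library, at 199.1, 173.3 and 177.0 FPKM in BCS24 and 233.0, 240.4 and 236.5 in BCS8. The wider list of 445 defence genes had 61 higher and 24 lower, with a median of 0.0, and 29 to 42 higher without any 1 library other than BCS24 control 1. Chitinase genes had 0 higher and 3 lower (10.7%) of 28, with 21 negative values and a median of −0.50. Over all alternatives 1 to 5 of them were lower. Serine protease inhibitors had 1 higher (9.09%) and 2 lower (18.2%) of 11, with 8 negative values and a median of −0.08. The number of higher ADP-binding genes was 6 without BCS8 control 3 or BCS24 control 2, 7 without BCS24 control 3, and 8 without BCS8 control 2 or with the rRNA covariate.

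The MLO-like gene HORVU7Hr1G002390 had the highest fold change among genes with a usable description, a mean of at least 5 FPKM, no overlap and reads in both accessions. MLO proteins are membrane proteins, and barley Mlo is known as a factor of susceptibility to powdery mildew. This gene was at 31.8, 79.6 and 62.7 FPKM in BCS24 and at 0.0176, 0.0363 and 0.0394 in BCS8 (10.61 ± 0.95, edgeR adjusted p = 5.15e-05). It lies near the start of chromosome 7H, as do genes that went the other way. Rpg1, HORVU7Hr1G001450, known as a stem rust resistance gene that encodes a receptor kinase-like protein, was at 9.50, 10.3 and 8.67 FPKM in BCS8 and at 0.0056, 0 and 0.0119 in BCS24 (edgeR adjusted p = 2.86e-06). ABC1037, HORVU7Hr1G001600, annotated as a kinase of defence, was at 17.2, 13.7 and 13.8 FPKM in BCS8 and at 1.28, 1.25 and 1.54 in BCS24 (−3.46 ± 0.27, edgeR adjusted p = 2.34e-05). ADP-binding gene HORVU7Hr1G001670 was at 6.28, 5.58 and 6.34 FPKM in BCS8 and at 0, 0.0086 and 0 in BCS24. HORVU7Hr1G001490, annotated to metal ion transport, was at 16, 9.56 and 13.9 FPKM in BCS8 and at 0 in BCS24. All of these genes separated the accessions without overlap, which the rule of choice required of the MLO-like gene. Under drought Rpg1, ABC1037 and HORVU7Hr1G001670 were again lower and the MLO-like gene again higher in BCS24. Rpg1, ABC1037 and HORVU7Hr1G001490 were picked after their values were seen, and leaving out BCS24 control 3 moved the fitted value of Rpg1 from −10.39 to −11.05.

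Glutathione transferases, enzymes of detoxification, differed in both directions. Of 62 tested genes 10 were higher (16.1%) and 5 lower (8.07%), beside 9.98% and 9.15% of all tested genes. Of their values 43 were negative and the median was −0.34. Their sum was lower in every BCS24 library, at 2421, 1896 and 2080 FPKM in BCS24 and 2510, 2799 and 3098 in BCS8. Large fold changes the other way were found as well. HORVU6Hr1G090560 was at 32.7, 38.4 and 39.5 FPKM in BCS24 and at 0, 0.0234 and 0 in BCS8 (edgeR adjusted p = 6.49e-06). A second one, HORVU2Hr1G124300, was at 9.44, 8.75 and 6.83 FPKM in BCS24 and at 0.0389, 0.0260 and 0.0669 in BCS8 (7.37 ± 0.38, edgeR adjusted p = 2.90e-06). The lower count of the list was 2 without BCS8 control 3 or BCS24 control 2 and 3 without BCS8 control 2 or BCS24 control 3. GER2a, HORVU7Hr1G036720, annotated to the cell wall and oxalate metabolism and picked after its values were seen, was at 77.2, 90.1 and 67.5 FPKM in BCS24 and at 1.93, 2.34 and 1.09 in BCS8 (5.44 ± 0.54, edgeR adjusted p = 9.73e-05). HORVU5Hr1G122130, annotated with cinnamyl-alcohol dehydrogenase activity of lignin synthesis, was at 1.10, 0.606 and 1.62 FPKM in BCS24 and 14.0, 10.1 and 13.8 in BCS8 (−3.52 ± 0.36, edgeR adjusted p = 1.15e-04). In all 4 genes the accessions lay apart. The lignin synthesis list had 5 higher and 8 lower of 73 (median −0.23).

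Among hormone genes, cytokinin oxidase/dehydrogenase HORVU1Hr1G057860, an enzyme that breaks down cytokinins, was at 48.9, 31.0 and 40.4 FPKM in BCS24 and at 3.48, 2.02 and 2.26 in BCS8 (3.94 ± 0.33, edgeR adjusted p = 3.17e-05). The lowest BCS24 library lay far above the highest BCS8 library. In the cytokinin metabolism list 0 of 5 genes were higher and 0 lower. Ent-kaurene synthase gene KSL1, HORVU2Hr1G099480, annotated to gibberellin synthesis, was at 11.1, 10.2 and 9.58 FPKM in BCS24 and 1.12, 1.72 and 0.889 in BCS8 (3.03 ± 0.34, edgeR adjusted p = 2.35e-04). The gibberellin synthesis list had 2 higher (16.7%) and 1 lower (8.33%) of 12, with a median of −0.07. Jasmonate synthesis had 1 higher (4.55%) and 2 lower (9.09%) of 22, with a median of −0.49. Of 15 brassinosteroid synthesis genes 6 were higher (40%) and 1 lower (6.67%), beside 9.98% and 9.15% of all tested genes. Their median was 0.52. HORVU2Hr1G095080, a monooxygenase gene of that list, was at 5.23, 1.77 and 3.15 FPKM in BCS24 and 0 in BCS8, at least 133-fold higher. The summed level of the list overlapped between the accessions, at 250.2 ± 9.22 FPKM in BCS24 and 251.3 ± 10.5 in BCS8 (mean ± SD, n = 3). The number of higher genes was 2 without BCS8 control 2, BCS24 control 2 or BCS24 control 3, 3 without BCS8 control 3 or with the rRNA covariate, and 1 with the replicate block in the control libraries alone.

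**Figure D2:**
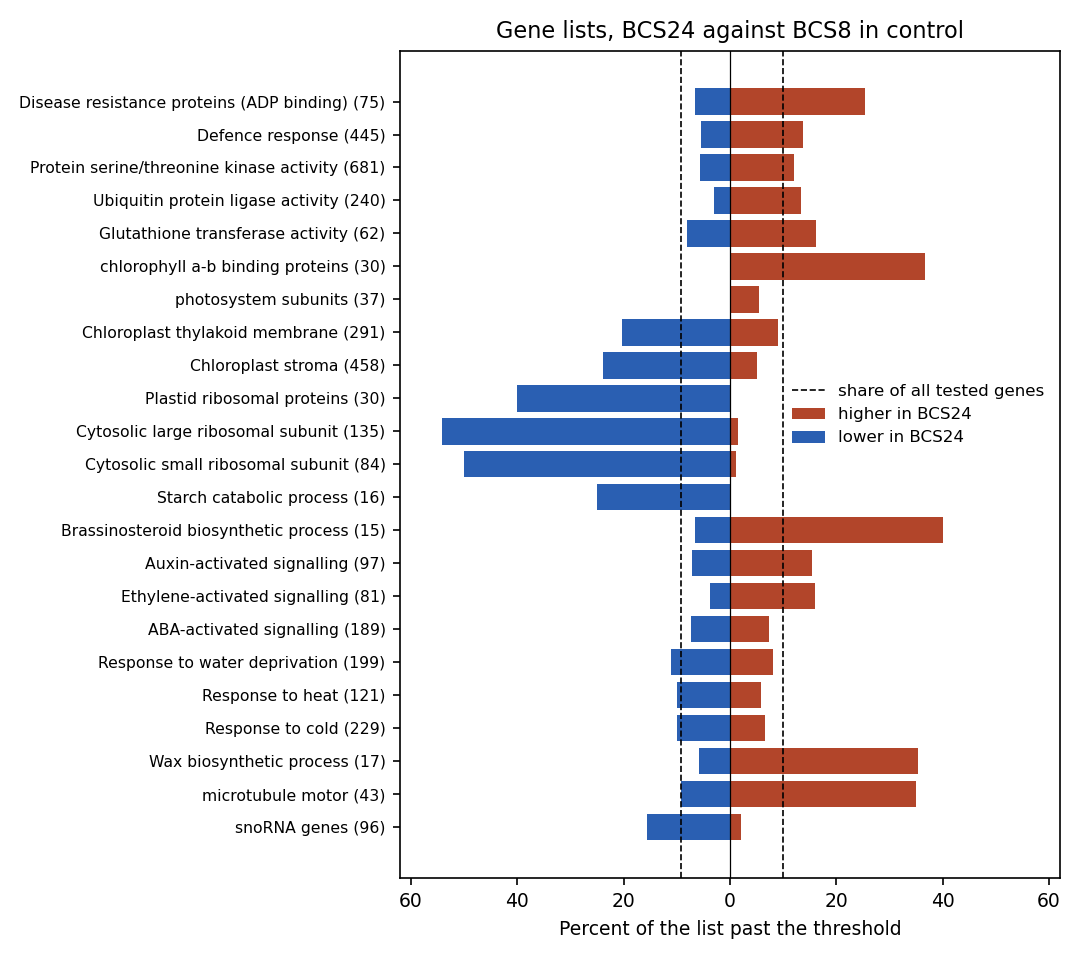
Percent of the tested genes of each list that were higher (right, red) or lower (left, blue) in BCS24 control, with the number tested in brackets. Dashed lines mark the shares over all tested genes, 9.98% higher and 9.15% lower; ribosomal lists reach furthest to the left, and light-harvesting, brassinosteroid, wax and microtubule motor lists reach far to the right.

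Among kinase and ubiquitin ligase genes the share that differed lay below the 19.1% of all tested genes, while the share that was higher lay above 9.98%. Of 681 genes with protein serine/threonine kinase activity 82 were higher and 39 lower (median 0.05), or 12% and 5.73%, and of 240 ubiquitin ligase genes 32 were higher and 7 lower (median 0.07), or 13.3% and 2.92%. The higher counts were 45 and 18 without BCS24 control 2, 46 and 17 without BCS24 control 3, 50 and 22 without BCS8 control 2, and 53 and 18 without BCS8 control 3. HORVU6Hr1G092010, a kinase gene of the plasma membrane, was at 47.4, 44.1 and 44.4 FPKM in BCS8 and at 1.05, 1.25 and 1.58 in BCS24 (−5.14 ± 0.32, edgeR adjusted p = 6.82e-06). HORVU3Hr1G112930, annotated both as a kinase and as a serine carboxypeptidase, was at 14.8, 18.5 and 16.3 FPKM in BCS24 and 0.817, 1.15 and 1.06 in BCS8 (4.01 ± 0.24, edgeR adjusted p = 5.50e-06). Both genes separated the accessions completely. HvSnRK1gamma, HORVU2Hr1G069060, a subunit of an energy-sensing kinase, was higher by 1.40 ± 0.20, at 25.6, 25.7 and 28.5 FPKM in BCS24 and 10.5, 8.21 and 11.2 in BCS8.

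Auxin signalling had 15 genes higher (15.5%) and 7 lower (7.22%) of 97 (median 0.19). Ethylene signalling had 13 higher (16.05%) and 3 lower (3.70%) of 81 (median 0.07). Without BCS8 control 2, BCS8 control 3, BCS24 control 2 or BCS24 control 3 the higher counts were 8 to 10 and 5 or 6. Abscisic acid (ABA) signalling was balanced, with 14 higher and 14 lower of 189 (median 0.0), shares of 7.41% each that lie below those of all genes. Without BCS24 control 2 these were 4 and 7. HORVU7Hr1G029040, annotated as a protein phosphatase of ABA signalling, was at 10.2, 20.9 and 17.2 FPKM in BCS24 and at 0, 0 and 0.0399 in BCS8 (edgeR adjusted p = 4.47e-05). Among genes of environmental stress, water deprivation had 16 higher and 22 lower of 199, heat 7 and 12 of 121, and cold 15 and 23 of 229. The higher shares, 8.04%, 5.79% and 6.55%, lay below the 9.98% of all genes. The lower shares, 11.06%, 9.92% and 10.04%, lay near the 9.15% of all genes. These counts too fell without BCS24 control 2, to 5 and 9, 4 and 4, and 4 and 8. HORVU3Hr1G108100, a gene of the ABA synthesis list, was at 11.7, 15.3 and 20.7 FPKM in BCS8 and 0.467, 0.662 and 0.852 in BCS24 (−4.59 ± 0.98, edgeR adjusted p = 0.0109). It did not pass without BCS24 control 2. The other 7 genes of ABA synthesis did not pass the threshold. Circadian rhythm genes numbered 8 higher (13.6%) and 5 lower (8.48%) of 59, and flower development genes 16 (12.6%) and 11 (8.66%) of 127. Without BCS24 control 2 the higher counts were 2 and 5.

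Light-harvesting genes had higher but no lower members in BCS24. Of 30 tested genes described as chlorophyll a-b binding proteins, which carry the antenna pigments of the photosystems, 11 were higher (36.7%) and 0 lower. Among all tested genes 9.98% were higher and 9.15% lower. The median log2 fold change of the antenna genes was 1.27 and 26 values were positive, against a median of −0.01 over all genes. Summed over the 30 genes the level was 39120, 29810 and 37340 FPKM in BCS24 and 25540, 17970 and 24100 in BCS8. The lowest BCS24 library lay above the highest BCS8 library. HORVU2Hr1G036960 was the most abundant of the 11, at 2444, 1878 and 2297 FPKM in BCS24 and 500.2, 394 and 631 in BCS8 (2.1 ± 0.26, edgeR adjusted p = 5.14e-04). HORVU5Hr1G109250 was at 191, 142 and 309 FPKM in BCS24 and 20, 12.2 and 41.6 in BCS8 (3.10 ± 0.67, edgeR adjusted p = 0.0120, and 3.74 without BCS8 control 3). HORVU1Hr1G088920 was at 44.9, 20.9 and 53.9 FPKM in BCS24 and 3.23, 1.59 and 7.87 in BCS8 (3.21 ± 0.81, edgeR adjusted p = 0.0219). None of the 3 genes overlapped between the accessions.

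The most abundant antenna gene did not pass. HORVU1Hr1G088870 was at 5474, 5252 and 5436 FPKM in BCS24 and 4854, 4036 and 3622 in BCS8 (0.36), and HORVU1Hr1G088880 (0.38) and HORVU5Hr1G082420 (0.72) did not pass either. HORVU6Hr1G091650 and HORVU6Hr1G091660 gave nearly the same fold change (2.32 and 2.30), and HORVU5Hr1G087250 and HORVU5Hr1G124160, which did not pass, nearly the same levels, so shared reads are possible and those pairs are uncertain. Summed over the antenna, replicate 2 was the lowest library of each accession. The number of higher antenna genes was 2 without BCS8 control 2 or BCS24 control 3, 3 without BCS8 control 1, 5 without BCS24 control 2, 6 without BCS24 control 1 and 9 without BCS8 control 3, while the median stayed between 0.90 and 1.69 under every alternative. HORVU1Hr1G088920 did not pass without BCS8 control 1, BCS8 control 2 or BCS24 control 3, and was at 4.06 without BCS8 control 3.

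**Figure D3:**
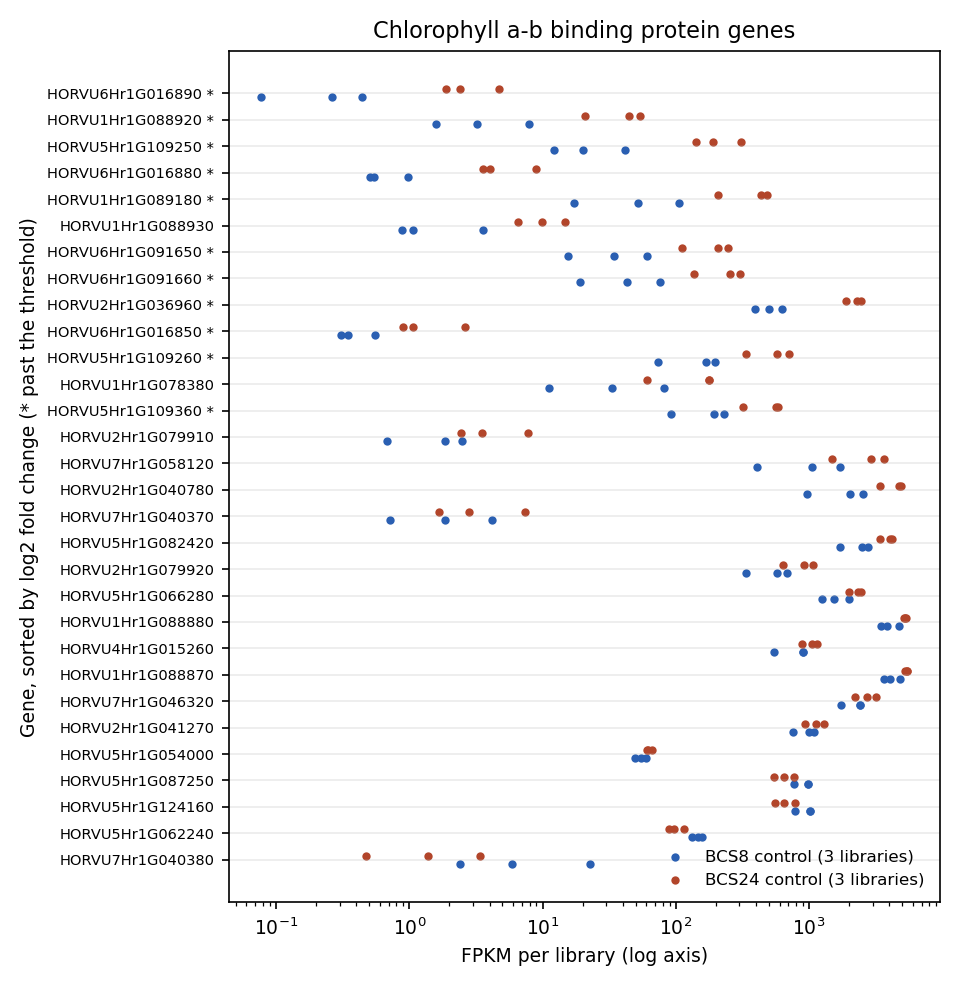
FPKM in each control library (log axis) of the 30 chlorophyll a-b binding protein genes, sorted by log2 fold change, with BCS24 in red and BCS8 in blue and an asterisk where the gene passed the threshold. The 11 genes past the threshold lie in the upper part with BCS24 to the right of BCS8, while the most abundant genes, above 1000 FPKM, include HORVU2Hr1G036960, which passed at 2.1, and HORVU1Hr1G088870, which did not at 0.36.

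Of 37 photosystem subunits by description 2 were higher and 0 lower (median 0.35), and none was higher without BCS8 control 2, BCS8 control 3, BCS24 control 2 or BCS24 control 3. Of the 8 Rubisco small chain genes 0 passed by edgeR (median −0.08), 0 had an unadjusted p under 0.05 and 0 passed by DESeq2. Of 26 chlorophyll synthesis genes 1 was higher and 4 lower (median 0.06). Chlorophyllide a oxygenase HORVU0Hr1G007360, the enzyme that makes chlorophyll b, was at 269, 286 and 323 FPKM in BCS24 and 153, 95.5 and 145 in BCS8 (1.14 ± 0.24, edgeR adjusted p = 0.00949). Chlorophyll synthase HORVU1Hr1G059890, which adds the phytyl tail, was lower, at 41.1, 32.8 and 34.6 FPKM against 57.6, 57.2 and 56.8 (−0.67 ± 0.13, edgeR adjusted p = 0.00601). Photosystem II by annotation had 1 higher and 3 lower of 21 (median −0.32), and its oxygen-evolving complex, a list picked after values were seen, 1 higher and 5 lower of 15 (median −0.43). The 1 higher member, HORVU2Hr1G038940, was at 187, 373 and 538 FPKM in BCS24 and 14.2, 13.4 and 24.5 in BCS8 (4.38 ± 0.51, edgeR adjusted p = 2.97e-04). The 3 genes did not overlap between the accessions.

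Plastid genes of other lists had more lower than higher members in BCS24. Of 458 genes annotated to the chloroplast stroma 109 were lower (23.8%) and 23 higher (5.02%), with a median of −0.27. Of 291 of the thylakoid membrane 59 were lower (20.3%) and 26 higher (8.94%), with a median of −0.19. Of all tested genes 9.15% were lower and 9.98% higher. The summed thylakoid level went the other way without overlap, at 80670, 65240 and 75340 FPKM in BCS24 and 62760, 52580 and 63270 in BCS8. The stroma sums overlapped, at 33650, 30640 and 29750 FPKM in BCS24 and 35380, 32610 and 36240 in BCS8. The gene of the stroma list with the lowest p, HORVU4Hr1G072810, was at 63.6, 71.8 and 57.8 FPKM in BCS8 and 1.77, 2.45 and 1.28 in BCS24 (−5.12 ± 0.24, edgeR adjusted p = 2.17e-06). Ferredoxin-NADP reductase HORVU7Hr1G002210, which passes electrons of photosynthesis to NADP, was at 281, 203 and 194 FPKM in BCS24 and 417, 390 and 439 in BCS8 (−0.89 ± 0.18, edgeR adjusted p = 0.00937). In both genes every BCS24 library was below every BCS8 library. The number of lower stroma genes was 35 without BCS24 control 3, 42 without BCS24 control 2, 52 without BCS8 control 3, 63 with the rRNA covariate, 66 without BCS8 control 1 and 67 without BCS8 control 2. For the thylakoid membrane it was 15 without BCS24 control 2, 16 without BCS24 control 3, 25 without BCS8 control 3, 29 with the rRNA covariate, 33 without BCS8 control 2 and 38 without BCS8 control 1.

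Of 16 starch breakdown genes 4 were lower (25%, beside 9.15% of all tested genes) and 0 higher, and 2 were lower without BCS24 control 3. Beta-amylase HORVU3Hr1G032160, which releases maltose, was at 8.92, 7.40 and 6.93 FPKM in BCS24 and 13.6, 14.6 and 12.5 in BCS8 (−0.82 ± 0.13, edgeR adjusted p = 0.00203). DPE2, HORVU2Hr1G021700, which uses that maltose in the cytosol, was at 17.2, 18.0 and 14.7 FPKM in BCS24 and 25.7, 25.6 and 22.8 in BCS8 (−0.58 ± 0.12, edgeR adjusted p = 0.0114, not past the threshold without BCS24 control 3). On the synthesis side, starch synthase HORVU7Hr1G025390 was at 72.8, 60.0 and 62.3 FPKM in BCS24 and 99.95, 95.4 and 100.8 in BCS8 (−0.62 ± 0.13, edgeR adjusted p = 0.00900). In all 3 genes every BCS24 library was below every BCS8 library.

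Cytosolic ribosomal protein genes were lower in BCS24 as a broad, small difference. Of 218 tested genes annotated to the large or small subunit, 115 were lower (52.75%) and 3 higher (1.38%). Beside them stand 9.15% and 9.98% of all tested genes. The ribosomal median was −0.54, with 198 negative values. The large subunit had 73 of 135 lower (median −0.56) and the small subunit 42 of 84 (median −0.50). Of the 115, 112 had reads in both accessions, and their log2 fold changes ran from −1.23 to −0.35 with a median of −0.65. The summed level was 8434, 6748 and 7541 FPKM in BCS24 and 10260, 11460 and 10390 in BCS8, with no overlap. HORVU1Hr1G073640 of the large subunit was at 130, 100.3 and 111 FPKM in BCS24 and 178, 201 and 177 in BCS8 (−0.71 ± 0.13, edgeR adjusted p = 0.00477). HORVU1Hr1G023660 of the small subunit was at 30.4, 24.9 and 27.4 FPKM against 44.0, 52.7 and 46.7 (−0.81 ± 0.15, edgeR adjusted p = 0.00466). Both were lower in every BCS24 library than in any BCS8 library.

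One of the 3 higher members, HORVU5Hr1G047980, is described as ribosome assembly factor mrt4 and is not a structural part of the ribosome. It was at 54.3, 52.4 and 57.3 FPKM in BCS24 and 33.8, 34.6 and 30.7 in BCS8 (0.71 ± 0.12, edgeR adjusted p = 0.00365). The translation factor BLT63, elongation factor 1-alpha HORVU2Hr1G013680, was also higher, at 605, 552 and 589 FPKM against 413, 353 and 387 (0.59 ± 0.11, edgeR adjusted p = 0.00534). The ribosomal median lay between −0.63 and −0.45 under every alternative. The number of lower genes was 27 without BCS24 control 2, 42 without BCS24 control 3, 45 without BCS8 control 2, 58 without BCS8 control 3 and 61 with the rRNA covariate. In the same libraries rRNA genes summed to 7043, 25990 and 18530 FPKM in BCS24 and 10200, 12780 and 6925 in BCS8. Of 235 rRNA genes 1 passed the threshold, but 209 values were positive and the median was 0.86. Under drought their median was −1.48 and 106 were lower. Beyond the rRNA covariate the part of rRNA genes in the ribosomal difference was not tested.

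Ribosomal genes of the organelles also held lower members. Of 30 plastid ribosomal protein genes 12 were lower (40%, beside 9.15% of all tested genes) and 0 higher (median −0.38). Their sum was 1500, 1282 and 1255 FPKM in BCS24 and 2013, 1915 and 2257 in BCS8. Plastid 50S protein L17, HORVU5Hr1G111640, was at 39.4, 31.3 and 32.1 FPKM in BCS24 and 63.5, 63.6 and 76.0 in BCS8 (−1.0 ± 0.18, edgeR adjusted p = 0.00428). Of 27 genes of the mitochondrial large subunit, a list chosen after values were seen, 9 were lower and 0 higher (median −0.50), with HORVU6Hr1G062040 at 47.5, 44.4 and 42.7 FPKM against 79.9, 71.4 and 95.3. The plastid count was 4 without BCS8 control 3, BCS24 control 2 or BCS24 control 3, 6 with the rRNA covariate, and 7 without BCS8 control 1 or BCS8 control 2. The mitochondrial count was 4 to 6 without any 1 library other than BCS24 control 1.

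**Figure D4:**
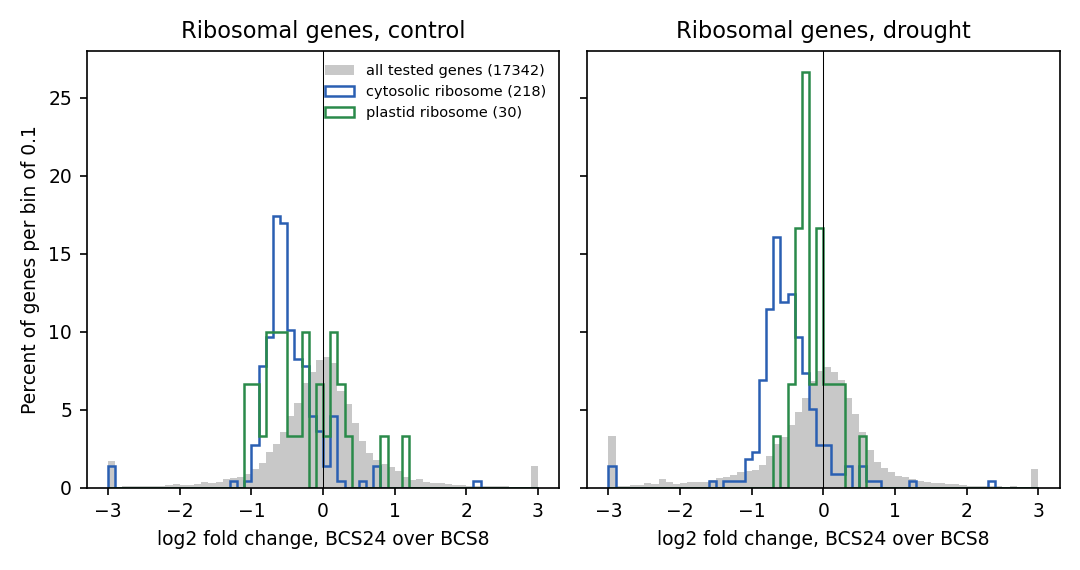
Distribution of log2 fold changes, BCS24 over BCS8, as percent of genes per bin of 0.1, in control (left) and under drought (right), for all 17342 tested genes, 218 cytosolic and 30 plastid ribosomal genes; values beyond 3 in size are drawn in the end bins. The cytosolic ribosomal genes are centred below 0 in both conditions, at medians of −0.54 and −0.53, while all genes centre near 0.

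Of 17 wax synthesis genes 6 were higher (35.3%) and 1 lower (5.88%), with a median of 0.47. Of all tested genes 9.98% were higher and 9.15% lower. Long chain acyl-CoA synthetase 2, HORVU5Hr1G099350, which activates fatty acids for wax and cutin, was at 1.91, 2.61 and 2.78 FPKM in BCS24 and 0.478, 0.399 and 0.333 in BCS8 (2.57 ± 0.45, edgeR adjusted p = 0.00417). Of 43 microtubule motor genes 15 were higher (34.9%) and 4 lower (9.30%), with a median of 0.37. Kinesin gene HORVU7Hr1G000860 was at 8.13, 9.06 and 8.75 FPKM in BCS24 and 0.416, 0.246 and 0.377 in BCS8 (4.60 ± 0.46, edgeR adjusted p = 9.79e-05). Both genes lay apart between the accessions. Of 19 DNA replication genes 6 were higher (31.6%) and 0 lower, with a median of 0.02. Of 33 nucleosome genes 2 were higher (6.06%) and 4 lower (12.1%), with a median of −0.02. Of 42 histone genes 5 were higher (11.9%) and 3 lower (7.14%), with a median of −0.17. Shares of both lists lay near those of all tested genes. The sum of the histone genes overlapped, at 707.8 ± 16.6 FPKM in BCS24 and 722.6 ± 130.4 in BCS8 (mean ± SD, n = 3). For microtubule motors 3 were higher without BCS8 control 2 and 4 without BCS8 control 3, BCS24 control 2 or BCS24 control 3. For DNA replication 1 was higher without BCS8 control 2 or BCS24 control 2 and 3 without BCS8 control 3 or BCS24 control 3. For wax 2 were higher without BCS8 control 3 or BCS24 control 3 and 3 without BCS8 control 1, BCS8 control 2 or BCS24 control 2.

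Other lists were picked after their values were seen. Of 16 DNA methylation genes 8 were higher and 0 lower (median 0.43), and their sum was 144.5, 149.7 and 148.8 FPKM in BCS24 against 122.5, 106.1 and 110.2 in BCS8. Their member HORVU5Hr1G012110, annotated with methyltransferase activity, was at 15.8, 15.1 and 17.6 FPKM in BCS24 and 10.5, 9.07 and 12.4 in BCS8 (0.58 ± 0.12, edgeR adjusted p = 0.0100). Autophagosome assembly had 8 of 20 higher, chromatin remodeling 11 of 29 with 1 lower, mismatch repair 6 of 15 and stomatal closure 8 of 25. Chloroplast fission had 7 of 18 lower and 0 higher, and thylakoid lumen 12 of 37 lower and 1 higher. These counts are descriptions, since the lists were chosen for them, and each fell to 2 or 3 in at least 1 alternative.

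Small nucleolar RNA genes, whose products guide chemical changes of rRNA, had 15 lower and 2 higher of 96 (median −0.38). Of the lower ones, 6 are neighbours on chromosome 4H, from 577399804 to 577402850 in the coordinates of the deposited table, whose build is not given in the sources used here. Small nucleolar RNA Z102/R77 (ENSRNA049484131) was at 4.60, 3.05 and 4.81 FPKM in BCS8 and 0 in BCS24, at least 7.42-fold lower. The other 5 were likewise at 0 in every BCS24 control library, with 30 to 55 counts summed over the 3 BCS8 libraries. Such genes are short and their counts few, and reads of a longer transcript across the cluster cannot be told apart from theirs. The number of lower small nucleolar RNA genes was 7 without BCS24 control 2 and 8 without BCS8 control 3. It was 9 with DESeq2, 8 with quantile normalization, 7 with no filter on low values, 1 with a filter at 5 FPKM, 4 with the replicate block over all 12 libraries and 0 with that block in the 6 control libraries alone.

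Some differences rest on BCS8 control 2. Arginine decarboxylase HORVU1Hr1G002090, of polyamine synthesis, was at 0.991, 19.2 and 0.237 FPKM in BCS8 and 0.0678, 0.0565 and 0.0250 in BCS24 (−6.93 ± 1.93, edgeR adjusted p = 0.0323), and at −3.47 and not past the threshold without that library. Allene oxide cyclase HORVU6Hr1G081000, of jasmonate synthesis, was at 10.2, 55.5 and 8.70 FPKM in BCS8 and 6.08, 2.89 and 2.26 in BCS24 (−2.72 ± 0.83, edgeR adjusted p = 0.0437), and at −1.35 without it. HVA22-like gene HORVU5Hr1G016810 was at 17.3, 44.3 and 13.5 FPKM in BCS8 and 7.43, 6.98 and 5.45 in BCS24 (−1.92 ± 0.55), and at −1.24 without it. These 3 genes were highest in BCS8 control 2 by more than 2 times, and none passed without that library or without any 1 BCS24 library. Tubulin-folding cofactor B HORVU2Hr1G127090, at 10.2, 6.48 and 9.33 FPKM in BCS24 and 29.5, 38.3 and 29.2 in BCS8 (−1.91 ± 0.22, edgeR adjusted p = 2.77e-04), passed under every alternative run, as did the Myb factor PHL6 HORVU7Hr1G096430 (−1.88 ± 0.28). NRT1/PTR family 7.1 HORVU6Hr1G070450, a transporter gene, was lower in every alternative, at 0.0916, 0.683 and 0.389 FPKM against 3.58, 4.24 and 18.1 (−4.50 ± 0.94, and −3.32 without BCS8 control 3).

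The same accession difference was measured in the 6 drought libraries, which the control comparison does not share, though 1 fit supplied both. Under drought 4749 genes differed (27.4% of those tested, edgeR), 2307 higher and 2442 lower in BCS24. Of the 1731 genes higher in control, 1154 (66.7%) were higher under drought too, which is 50.0% of the drought list, and 5 were lower. Of the 1586 lower in control, 891 (56.2%) were lower under drought too, 36.5% of the drought list, and 10 were higher. Of the genes that differed at least 4-fold in control, 274 of 348 were higher and 266 of 310 lower under drought too. The sign was the same for 1661 of the 1731 and 1449 of the 1586.

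Of the cytosolic ribosomal genes 95 were lower in both conditions, with a drought median of −0.53. Of 30 plastid ribosomal protein genes 0 passed under drought by edgeR (median −0.21), 0 had an unadjusted p under 0.05 and 0 passed by DESeq2. Antenna genes had 2 of 30 higher under drought (median 0.83), and chloroplast stroma genes had 68 higher and 40 lower (median 0.08). Among single genes, cytokinin oxidase HORVU1Hr1G057860 was higher under drought by 5.28, whereas HORVU2Hr1G038940 stood at 0.09 and annexin HORVU1Hr1G016080, at 2.57 ± 0.46 in control, stood at 0.10. The difference between the control and the drought effect was past the threshold for 0 genes by edgeR (0% of those tested), with 2166 at an unadjusted p under 0.05, and for 629 by DESeq2. A gene or list that passed in 1 condition alone is therefore not shown by edgeR to differ between conditions.

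**Figure D5:**
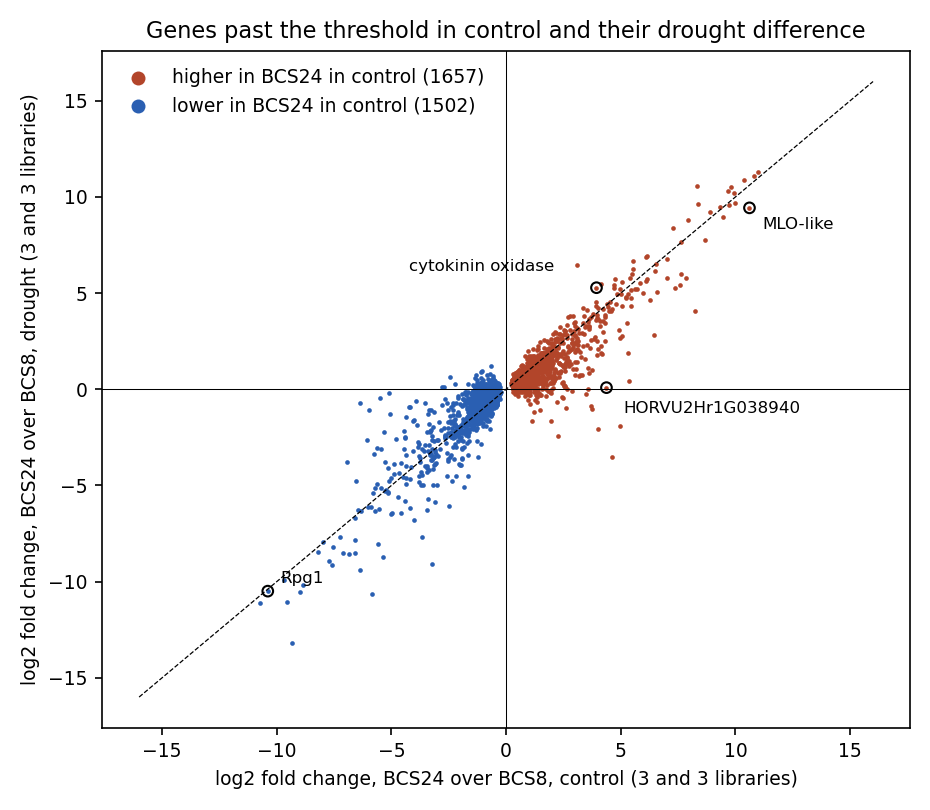
Log2 fold change of BCS24 over BCS8 in control (horizontal) and under drought (vertical) for genes past the threshold in control, red where higher (1657 drawn) and blue where lower (1502 drawn), with the dashed line where both are equal. Genes at 0 in all libraries of a group, 74 and 84, are left out because their fitted fold has no fixed size; most points lie in the quadrants of equal sign, and HORVU2Hr1G038940 lies near 0 under drought.

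Genes that differed were spread over all chromosomes. The share of tested genes past the threshold ran from 17.9% on chromosome 5H to 21.1% on 7H, and was 13.7% for genes not placed on a chromosome and 0 of 29 for genes of the plastid genome by edgeR (2 at an unadjusted p under 0.05, 1 by DESeq2). In 327 windows of 10 Mb with at least 20 tested genes the median share was 18.8% and the range 0 to 48.3%. The highest window lay on chromosome 7H from 130000001 to 140000000, with 14 of 29 genes, and the first 10 Mb of chromosome 1H held 36 of 85 (42.4%). The longest run of neighbouring tested genes that all differed had 8 genes, from HORVU7Hr1G000510 to HORVU7Hr1G000820 near the start of 7H (781006 to 1486712), 5 higher and 3 lower. A run of 6 genes on 5H, from HORVU5Hr1G017720 to HORVU5Hr1G018040, was higher throughout. Windows are a description with no test.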

How the data were processed

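Leaf poly(A) RNA with a RIN above 7 was made into dUTP-stranded libraries and sequenced from both ends on an Illumina NovaSeq, per the labels' protocols. The tools named, per the submitters' processing notes, are DESeq2, edgeR and StringTie 2.1.6. Their roles, the aligner, the build and how shared reads were handled: not given in the sources used here. The authors deposited whole-number counts and FPKM per gene and library, per the file headers; a transcript table was not used here. The quasi-likelihood F test of edgeR 4.0.16 in R 4.3.3 was run on TMM-scaled counts, all 12 libraries in 1 fit, 1 coefficient per group (8 residual and 2.47 prior degrees of freedom), and Benjamini-Hochberg adjustment over 17342 genes. Each standard error is the size of the log2 fold change divided by √F. Levels are the deposited FPKM.

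Lists come from ontology terms or description words and are given as counts and medians. Named genes are the 10 largest fold changes each way and the 5 most abundant each way, among genes with a usable description, a mean of at least 5 FPKM and no overlap, plus up to 2 members of each list and direction by p; others are said to be picked later. Members, lists and genes were chosen with earlier results of these data known. DESeq2 1.42.0 and limma 3.58.1 served as alternatives, beside other scalings, filters and left-out libraries.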

Additional observations from a re-analysis of the deposited data

Results flagged for a closer look

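For 5 of the genes named or described, every BCS24 library lay on one side of every BCS8 library in control and on the other side under drought, and both calls passed by edgeR in opposite directions. The difference between the drought and the control effect did not pass the threshold for any of them. Genes without a usable description that lay apart in the same way are not listed. Among those were HORVU2Hr1G103930, with a difference of −4.70 (edgeR adjusted p = 0.107), and HORVU2Hr1G109120, with −3.58 (edgeR adjusted p = 0.196). DPE2 HORVU2Hr1G021700, of starch breakdown, moved from −0.58 in control to 0.70 under drought, a difference of 1.28 (edgeR adjusted p = 0.107). Alpha-1,4 glucan phosphorylase HORVU3Hr1G085380, which also breaks down glucans, moved from −0.68 to 1.21, a difference of 1.88 (edgeR adjusted p = 0.107). In control it was at 14.2, 12.6 and 11 FPKM in BCS24 and 23.0, 21.0 and 16 in BCS8, and under drought at 42.8, 27.8 and 33.5 against 20.1, 13.4 and 13.7. Glucose-6-phosphate isomerase HORVU5Hr1G069850 showed a difference of 1.13 and UTP-glucose-1-phosphate uridylyltransferase HORVU5Hr1G087810 one of 0.68 (both edgeR adjusted p = 0.192). Transcription factor gene HORVU7Hr1G037180 went the other way, from 1.2 in control to −1.17 under drought, a difference of −2.37 (edgeR adjusted p = 0.0604). It was at 14.3, 16.9 and 18.9 FPKM in BCS24 control, 6.22, 6.65 and 8.69 in BCS8 control, 9.80, 10.9 and 12.7 in BCS24 drought and 31.1, 23.5 and 24.4 in BCS8 drought.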

How the results depend on the processing

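The 3317 genes of the control comparison numbered 2295 to 4712 under DESeq2, both FPKM models in limma, the other scalings, both filters, the 6 control libraries alone, rRNA genes left out and the replicate block over all 12 libraries (3214). They numbered 2136 with rRNA share as a covariate and 2155 with the replicate block in the 6 control libraries alone. With 1 control library left out the count ran from 1402 to 2873. The cause of these shifts was not tested. Higher genes were 52.2% of the total, and 49.7% (without BCS24 control 1) to 56.8% (without BCS24 control 3) over these alternatives. Whether the replicate numbers pair the libraries is not given in the sources used here. Same-numbered control libraries of the accessions had deviations correlated at −0.144, −0.00383 and 0.202. Differently numbered ones ran from −0.266 to 0.198. With 3 libraries per group these values cannot decide on pairing. The interaction, with 0 genes in edgeR, had 629 in DESeq2 and 1 with a filter at 5 FPKM. Among 191 named genes that passed, 3168 of 3574 alternative values passed in the same direction, 406 did not pass and 0 reversed, and 116 genes passed in every alternative. With 3 libraries per group, missing the threshold does not make 2 levels equal, and genes with few counts, snoRNA above all, give bounds only.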
